A study of Mus musculus with 8 samples.

Results

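The genes described here are the 4 ligands and both receptors of platelet-derived growth factor (PDGF) and 4 genes used as markers of pericytes. They were taken by name, 1 probe set per gene, and all 10 of the 10 genes had a single probe set carrying only their own symbol, out of 19937 genes and 34760 probe sets on the array. All 10 had a mean signal above the expression limit of 4.0 that the study set. They were measured in 8 tumors that formed when 4T1 mammary carcinoma cells, a metastasizing mouse line, were injected into the fourth mammary gland of BALB/c mice. In the 4 nonirradiated tumors the gland received no treatment before the cells were injected, and in the 4 preirradiated tumors it had received a single local X-ray dose of 20 Gy. All 8 tumors grew for 18 days, and no label names a genetic alteration, a drug or the age of the mice. No label tells if every tumor had a host mouse of its own, so the p-values measure the spread between these tumors.

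PDGF ligands are secreted dimers that bind and activate receptor tyrosine kinases on mesenchymal cells. The A chain acts mainly through the alpha receptor and the B chain through both receptors, while the C and D chains are secreted in a latent form that proteases activate. In blood vessels, endothelial cells release the B chain and pericytes, the mural cells that wrap capillaries, carry the beta receptor and are recruited by it. In mammary tumors the receptors are known chiefly from fibroblasts and pericytes, and several ligands can be made by the carcinoma cells. The RNA here came from whole tumor tissue, so a signal cannot be given to a cell type, and fewer cells of a type and less RNA per cell cannot be told apart.

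Values are RMA signals on the log2 scale, on which a difference of 1.0 is a factor of 2, and they are compared for the same gene between tumors and never between genes. Before any gene is described, preirradiated tumors 1 and 3 have to be set apart. The mean of 12 skeletal muscle markers was 9.36 and 10.78 in these tumors and 6.03 to 6.35 in the 6 others. Fibroblast markers were higher too, with 11 of 12 higher on average and list means of 9.10 to 9.51 in preirradiated against 8.80 to 9.02 in nonirradiated tumors. Preirradiated tumor 1 was also alone in its adipocyte markers, with a mean over 9 genes of 7.74 against 6.15 to 6.53 in nonirradiated and 6.27 to 6.45 in the other preirradiated tumors. All 8 epithelial markers were higher on average, and preirradiated tumor 2 was highest, at a list mean of 10.53 against 9.93 to 10.23 in the 7 others. The difference without preirradiated tumors 1 and 3, a setting chosen after seeing the data, is given for each member, and for other genes where it moved the value by over 1.5 times or crossed a threshold.

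None of the 10 genes separated the groups beyond the spread between tumors once corrected for multiple testing. With limma, 0 of 10 passed a Benjamini-Hochberg adjusted p of 0.05, against 0% of the 34738 probe sets tested, and their adjusted p ran from 0.828 to 0.998. At an unadjusted limma p under 0.05 there was 1, Cspg4, or 1 in 10 against a background of 5.8% of all probe sets. The filter that the study used, which combines a p of 0.05 or less, uncorrected, with a log2 change of 0.4 or more in size, was passed by 0 members and by 0.642% of probe sets. In 0 members did the groups separate without overlap, against 3.36% of probe sets. On average 6 members were higher and 4 lower in preirradiated tumors, where 49.5% of probe sets were higher (8 and 2 after a further quantile normalization), and their median difference was 0.08, beside -0.0009 over all probe sets tested.

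**Figure D1:**
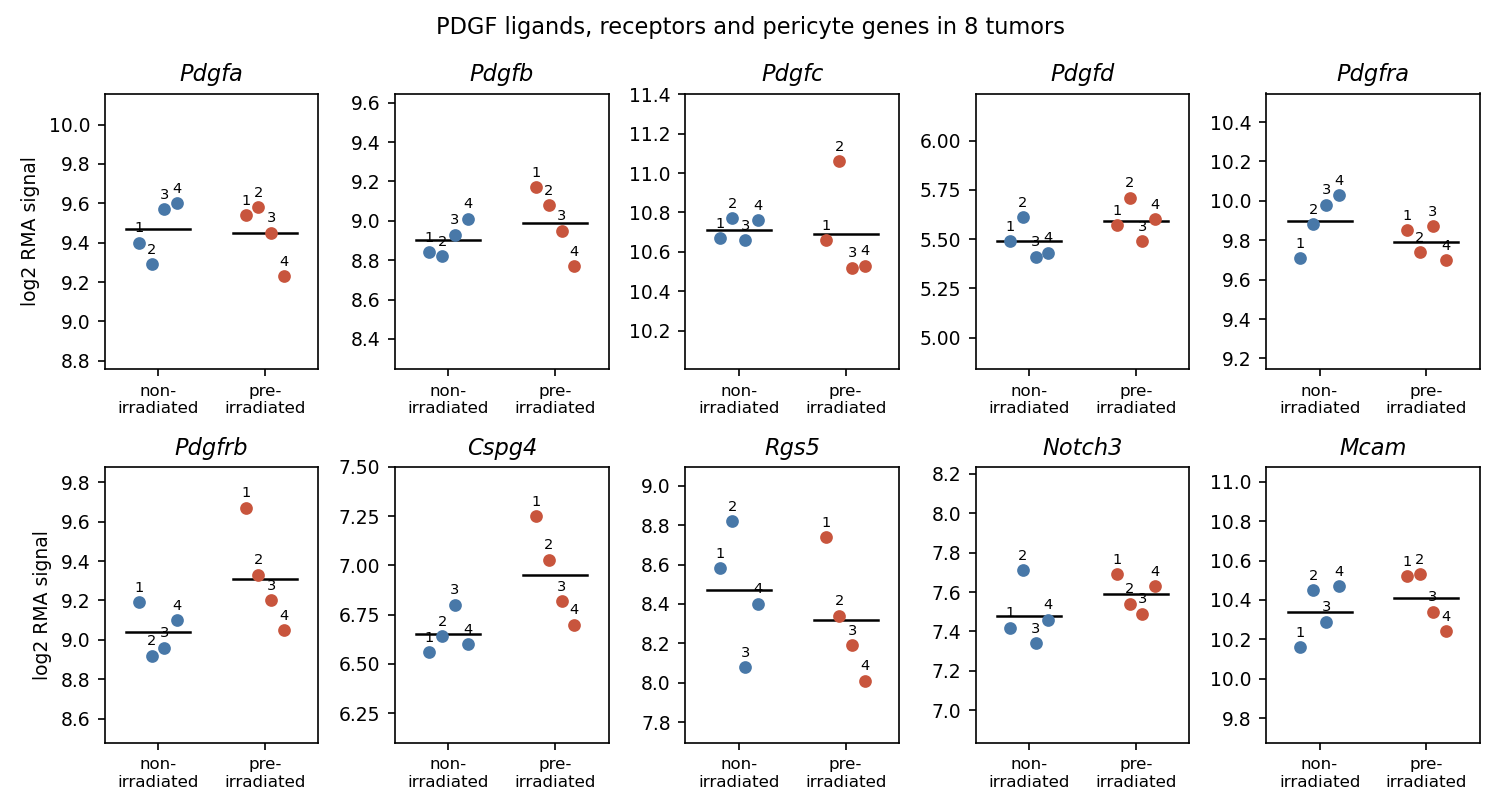
Each panel shows 1 gene, with the log2 RMA signal on the vertical axis, blue points for the 4 nonirradiated tumors, red points for the 4 preirradiated tumors, replicate numbers beside the points and a black line at each group mean; every panel spans the same log2 distance. The groups overlap in all 10 panels, and Pdgfrb and Cspg4 have 3 of 4 preirradiated tumors above the highest nonirradiated tumor.

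The promoters of 2 pericyte genes are shown because these genes had the smallest p among the members (Cspg4) and the widest spread between tumors (Rgs5). Each run is the 250 bases before the annotated start from the RefSeq promoter table of GRCm38.p6, on the gene's strand, with capitals marking matches to the Sp1 motif GGGCGG on either strand. Cspg4 lies at chr9:56864854-56865103 and Rgs5 at chr1:169655251-169655500, both on the plus strand.
Cspg4: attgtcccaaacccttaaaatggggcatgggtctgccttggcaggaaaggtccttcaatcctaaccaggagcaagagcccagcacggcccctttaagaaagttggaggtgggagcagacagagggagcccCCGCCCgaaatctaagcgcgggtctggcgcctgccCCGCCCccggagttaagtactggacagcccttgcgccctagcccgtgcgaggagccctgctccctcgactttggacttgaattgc
Rgs5: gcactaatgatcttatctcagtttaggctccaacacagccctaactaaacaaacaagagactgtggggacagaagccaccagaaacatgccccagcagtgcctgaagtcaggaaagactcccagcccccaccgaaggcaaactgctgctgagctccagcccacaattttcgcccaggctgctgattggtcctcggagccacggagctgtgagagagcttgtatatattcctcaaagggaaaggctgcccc
The Cspg4 window holds 2 matches and the Rgs5 window 0. The 8 members with an entry in that table have 9 windows, 2 of them for Pdgfa. The Sp1 motif was in 5 of the 9 windows (both of Pdgfa and those of Cspg4, Notch3 and Mcam), and 32.7% of all 32851 windows hold it. The RBPJ motif TGGGAA, read by the effector of Notch receptors, was present in 2 of the 9 (1 of Pdgfa and that of Pdgfd) against 21.6% of all windows. The AP-1 motif TGANTCA was present in 0 of the 9 against 6.75%, and the E-box CANNTG in 2 against 66.2%. The CArG box of the serum response factor was present in 1, Pdgfc, against 1.47%. The motifs were searched on both strands, and these matches did not overlap one another. A match is a run of letters and not a binding site.

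Among the ligands, neither direction prevailed, with 2 of 4 higher and 2 lower on average (4 of 4 higher after a further quantile normalization) and differences between -0.02 and 0.11. Pdgfa encodes the A chain. It read 9.40, 9.29, 9.57 and 9.60 in nonirradiated tumors 1 to 4 and 9.54, 9.58, 9.45 and 9.23 in preirradiated tumors 1 to 4. The groups covered almost the same range, with the lowest value in preirradiated tumor 4. Its log2 difference was -0.015 (SE 0.097, 95% interval -0.24 to 0.21, n = 4 per group, limma adjusted p = 0.998), and it was -0.06 without preirradiated tumors 1 and 3. Leaving out single tumors gave either sign, with -0.074 when nonirradiated tumor 2 was omitted and 0.06 when preirradiated tumor 4 was.

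Pdgfb encodes the B chain, the ligand of vascular mural cells. Its signals were 8.84, 8.82, 8.93 and 9.01 without and 9.17, 9.08, 8.95 and 8.77 with preirradiation. Preirradiated tumors 1 and 2 lay above every nonirradiated tumor and preirradiated tumor 4 lay below every one. The difference came to 0.092 (SE 0.09, 95% interval -0.11 to 0.30, limma adjusted p = 0.961). Omitting preirradiated tumor 1 left 0.032 and omitting preirradiated tumors 1 and 3 left 0.025, while omitting preirradiated tumor 4 gave 0.17, where the unadjusted limma p was under 0.05. Endothelial markers, a possible source of Pdgfb transcript, were higher on average in 11 of 12 (9 of 12 with arrays centred on their medians). Their list means were 8.43 to 8.67 in nonirradiated and 8.78, 8.69, 8.59 and 8.52 in preirradiated tumors 1 to 4. The 5 platelet and megakaryocyte markers measured had means of 6.60 to 6.87 and 6.54 to 6.78. Macrophage markers were lower on average in 9 of 9, with means of 10.72 to 10.89 in nonirradiated and 10.58 to 10.76 in preirradiated tumors. The part of these cells in the Pdgfb signal was not tested.

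Pdgfc encodes the C chain, a ligand with an N-terminal CUB domain that tissue plasminogen activator can remove. It was nearly constant without irradiation, at 10.67, 10.77, 10.66 and 10.76, and read 10.66, 11.06, 10.52 and 10.53 in preirradiated tumors. A single tumor, preirradiated 2, stood above all others, and 3 of 4 preirradiated tumors lay below the lowest nonirradiated tumor or level with it. The group SD was 0.06 in nonirradiated and 0.25 in preirradiated tumors, and the means differed by -0.021 (SE 0.11, limma adjusted p = 0.996). Without preirradiated tumor 2 the difference was -0.14, with an unadjusted limma p under 0.05, and without preirradiated tumors 1 and 3 it was 0.084. The same preirradiated tumor 2 had the highest epithelial marker mean, and the part of epithelial cells in the Pdgfc signal was not tested.

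Pdgfd encodes the D chain, which urokinase and matriptase can activate and which signals mainly through the beta receptor. Its values of 5.49, 5.61, 5.41 and 5.43 against 5.57, 5.71, 5.49 and 5.60 lay in the lower part of the table's range of 3.75 to 13.71, where RMA tends to understate changes. All 4 preirradiated tumors were at or above the nonirradiated mean, yet the groups overlapped through nonirradiated tumor 2. The difference was 0.11 (SE 0.061, 95% interval -0.03 to 0.25, limma adjusted p = 0.888), and it was 0.17 without preirradiated tumors 1 and 3. It ran from 0.07 without preirradiated tumor 2 to 0.15 without nonirradiated tumor 2, where the unadjusted limma p was under 0.05.

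The receptors had average differences of opposite sign. Pdgfra encodes the alpha receptor, found on fibroblasts and mesenchymal progenitors. Nonirradiated tumors read 9.71, 9.88, 9.98 and 10.03, and preirradiated tumors 9.85, 9.74, 9.87 and 9.70. In preirradiated tumors 0 of 4 exceeded the nonirradiated mean, while nonirradiated tumor 1 was about as low as the lowest of them. The difference was -0.11 (SE 0.077, 95% interval -0.28 to 0.07, limma adjusted p = 0.923). It was -0.17 without nonirradiated tumor 1, where the unadjusted limma p was under 0.05, -0.063 without nonirradiated tumor 4 and -0.18 without preirradiated tumors 1 and 3. These differences were measured beside fibroblast markers that had a median difference of 0.433.

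Pdgfrb encodes the beta receptor, the receptor of pericytes, which fibroblasts also carry. It was 9.19, 8.92, 8.96 and 9.10 in nonirradiated tumors and 9.67, 9.33, 9.20 and 9.05 in preirradiated tumors. Preirradiated tumor 1 was far the highest, tumors 2 and 3 lay above the nonirradiated range, tumor 3 barely, and tumor 4 lay within it. The means differed by 0.27 (SE 0.13, 95% interval -0.02 to 0.56, 1.21-fold, n = 4 per group, limma adjusted p = 0.865), and a two-sided exact permutation test gave p = 0.114. Without preirradiated tumor 1 the difference was 0.15, and without both preirradiated tumors 1 and 3 it was also 0.15. It was 0.36 without preirradiated tumor 4, where the unadjusted limma p was under 0.05. Preirradiated tumor 1 was also highest in fibroblast markers, at a list mean of 9.51, in endothelial markers, at 8.78, and in adipocyte markers, as given above. Preirradiated tumor 3, at 9.49 for fibroblast markers, had a Pdgfrb signal close to the nonirradiated maximum. The part of stromal or fat cells in the receptor's difference was not tested.

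To ask whether the receptors differed from each other in response, Pdgfrb minus Pdgfra was taken within each tumor, a comparison chosen after the values were seen. Relative to its nonirradiated mean this quantity ran from -0.16 to 0.34 in nonirradiated and from 0.19 to 0.67 in preirradiated tumors. The mean shift of 0.38 (SD 0.23 in each group, n = 4) gave p = 0.0857 in a two-sided exact permutation test over 70 assignments, where the smallest possible p is 0.0286. Adjusted over the 2 pairs compared this way, p was 0.143. Neither p accounts for the choice of the pairs after the values were seen. The groups overlapped, so an unequal response of the receptors was not resolved with these tumors.

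**Figure D2:**
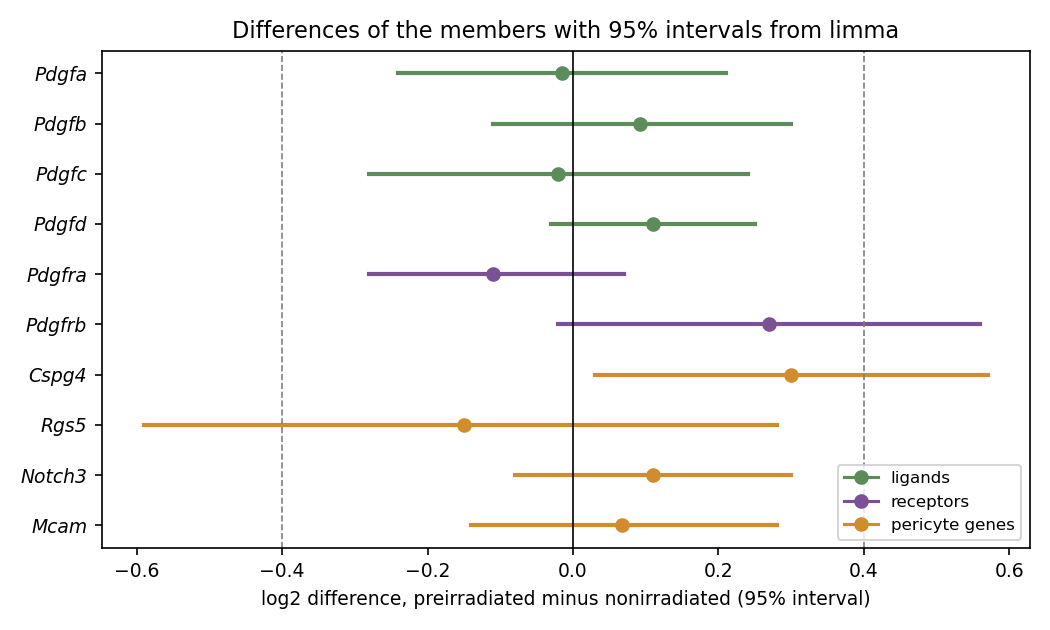
Points give the log2 difference, preirradiated minus nonirradiated, for each gene and bars its 95% interval from limma, coloured by role; dashed lines mark the study's change limit of 0.4 in either direction. The interval of Cspg4 (0.03 to 0.57) excludes 0, those of the other 9 genes include it, and that of Rgs5 (-0.59 to 0.28) is the widest.

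Of the pericyte genes 3 of 4 were higher on average and 1 was lower, with differences from -0.15 to 0.3. Cspg4 encodes NG2, a membrane proteoglycan of pericytes and of glial progenitors. Its signals were 6.56, 6.64, 6.80 and 6.60 in nonirradiated tumors and 7.25, 7.03, 6.82 and 6.70 in preirradiated tumors. In 3 of 4 preirradiated tumors Cspg4 exceeded the highest nonirradiated tumor, by a narrow margin in tumor 3, and tumor 4 lay inside the nonirradiated range. The difference of 0.3 (SE 0.12, 95% interval 0.03 to 0.57, 1.23-fold, n = 4 per group) had an unadjusted limma p of 0.0312 and an adjusted p of 0.828. A two-sided exact permutation test of the same difference gave p = 0.0571, where 4 against 4 tumors allow no p below 0.0286, and the other 8 members besides Pdgfrb had an exact p of at least 0.171. The unadjusted p was 0.05 or more without any of 5 of the 8 tumors (nonirradiated 1, 2 or 4, preirradiated 1 or 2), with the smallest difference, 0.2, without preirradiated tumor 1. Without preirradiated tumors 1 and 3 the difference was 0.21. Among omissions of single tumors it was largest without preirradiated tumor 4, at 0.39, where the unadjusted limma p was under 0.05. The tumor with the highest Cspg4 signal, preirradiated 1, was the one with high adipocyte markers. It was also highest in fibroblast markers, at 9.51, and endothelial markers, at 8.78, and was high in skeletal muscle markers, at 9.36. The part of any of these cells in the difference was not tested. The 6 Schwann and glial markers measured had list means of 5.88 to 6.05 in nonirradiated and 5.92 to 6.04 in preirradiated tumors, and these ranges overlapped.

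Rgs5 encodes a regulator of G protein signalling that is abundant in pericytes. It read 8.58, 8.82, 8.08 and 8.40 in nonirradiated tumors and 8.74, 8.34, 8.19 and 8.01 in preirradiated tumors. Both groups spread widely and overlapped over most of their range, with an SD of 0.31 in each. The pooled SD was larger than that of 97.8% of genes tested, and the difference of -0.15 (SE 0.19, 95% interval -0.59 to 0.28) had a limma adjusted p of 0.972. It ran from -0.29 without preirradiated tumor 1 to -0.034 without nonirradiated tumor 2, and was also -0.29 without preirradiated tumors 1 and 3.

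Cspg4 minus Rgs5 within each tumor was the other pair compared after the values were seen. Relative to the nonirradiated mean it ran from -0.36 to 0.54 in nonirradiated and from 0.33 to 0.51 in preirradiated tumors. The mean shift was 0.45 (SD 0.39 and 0.08, n = 4 each), with p = 0.143 in the two-sided exact permutation test, raw and adjusted over the 2 pairs. Here too p does not account for that choice. In 0 of 4 preirradiated tumors did it exceed the highest nonirradiated tumor.

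Notch3 encodes a Notch receptor of mural cells that vascular smooth muscle needs for its maturation. Nonirradiated tumors read 7.42, 7.71, 7.34 and 7.46, and preirradiated tumors 7.69, 7.54, 7.49 and 7.63. All 4 preirradiated values lay above the nonirradiated mean of 7.48, yet the highest of the 8 belonged to nonirradiated tumor 2. The difference was 0.11 (SE 0.083, 95% interval -0.08 to 0.30, limma adjusted p = 0.937), and without preirradiated tumors 1 and 3 it was 0.1. It was 0.18 without nonirradiated tumor 2, where the unadjusted limma p was under 0.05, and 0.06 without nonirradiated tumor 3.

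Mcam encodes CD146, an adhesion molecule of endothelial cells and pericytes. It was 10.16, 10.45, 10.29 and 10.47 in nonirradiated and 10.52, 10.53, 10.34 and 10.24 in preirradiated tumors. Preirradiated tumors 1 and 2 were slightly above the nonirradiated range and the others within it. Its difference was 0.067 (SE 0.091, 95% interval -0.14 to 0.28, limma adjusted p = 0.972). It was 0.0057 without nonirradiated tumor 1, 0.12 without preirradiated tumor 4 and 0.045 without preirradiated tumors 1 and 3.

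In each of the 10 members the range over the 4 preirradiated tumors was wider than the difference between the group means. Preirradiated tumor 1 had the group's highest value in 5 members (Pdgfb, Pdgfrb, Cspg4, Rgs5 and Notch3) and preirradiated tumor 2 in 4. Preirradiated tumor 4 had the lowest value in 7 members. The median over the members, as difference from the nonirradiated mean, was 0.2, 0.19, 0.0 and -0.12 in preirradiated tumors 1 to 4 and between -0.06 and 0.05 in nonirradiated tumors. The order of the endothelial marker means was the same, at 0.24, 0.15, 0.05 and -0.02 from the nonirradiated mean, and that of fibroblast markers was not, at 0.58, 0.17, 0.56 and 0.26. The order was not particular to endothelial markers. In preirradiated tumors 1 to 4 the PDGF processing and co-receptor genes described below had list means of 10.55, 10.49, 10.39 and 10.37. The genes that dampen the receptor signal had 9.53, 9.50, 9.45 and 9.43. These are 4 tumors, and the agreement of their order with any of these lists is a description with no test.

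**Figure D3:**
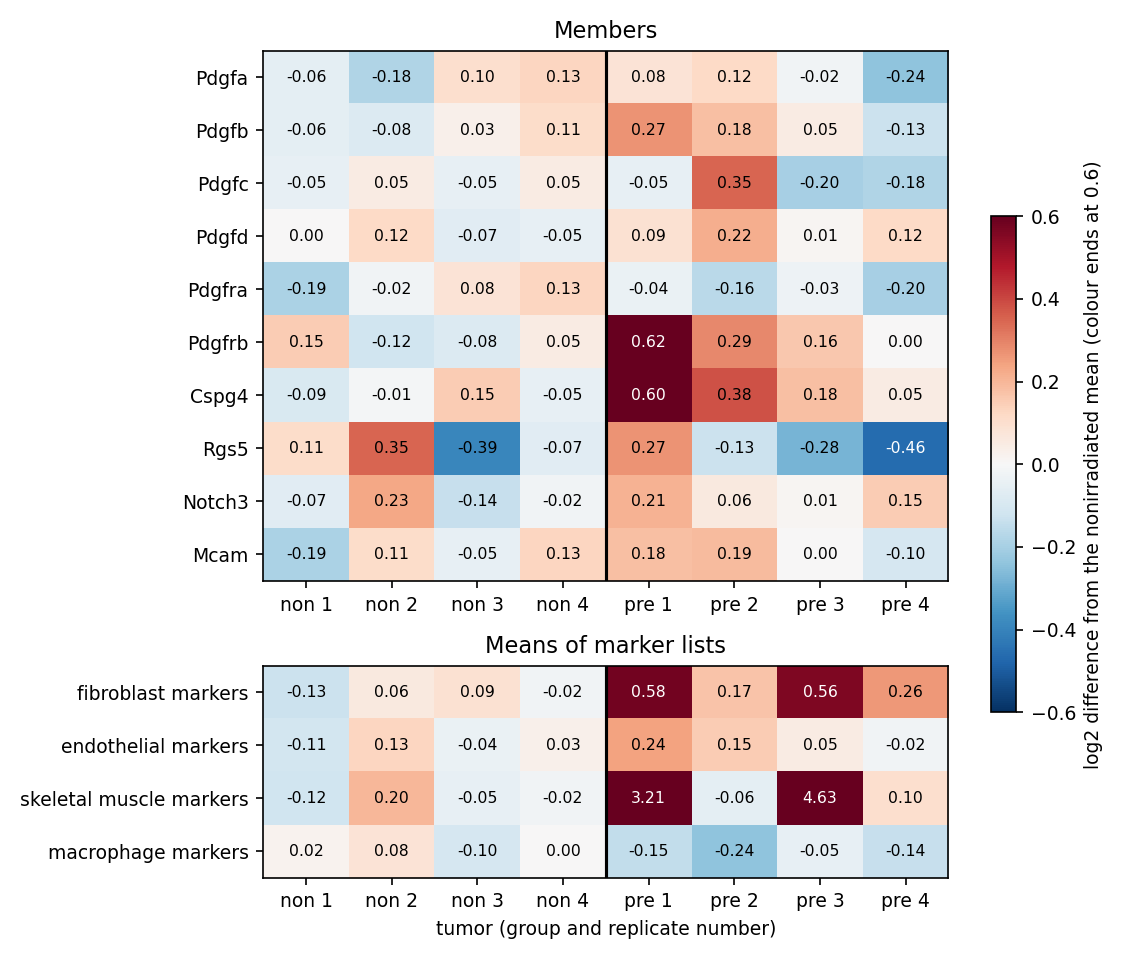
Columns are the 8 tumors and each cell gives the log2 difference from the nonirradiated mean, for the 10 genes above and for the means of 4 marker lists below; red is higher, blue is lower, and colour stops at 0.6. Pdgfrb and Cspg4 reach 0.62 and 0.6 in preirradiated tumor 1, and the skeletal muscle list reaches 3.21 and 4.63 in preirradiated tumors 1 and 3.

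For Pdgfrb, Pdgfra and Rgs5, the genes with the most similar profile were found by the mean absolute difference of centred log2 values over the 8 tumors. Nearest to Pdgfrb were Cnn1, a calponin of smooth muscle (0.056), Postn, the matrix protein periostin (0.07), and Cdc42bpa, a kinase acting below Cdc42 (0.072), where Pdgfrb itself deviated by 0.17 from its mean. Nearest to Pdgfra were Stx11 (0.034), Ttyh2 (0.035) and Khk (0.036), against a deviation of 0.097. Nearest to Rgs5 were Tpsab1, a mast cell tryptase (0.12), the homeobox gene Meox2 (0.12) and Anpep, an aminopeptidase also found on pericytes (0.13), against 0.24. Such distances are small for many genes when a profile is nearly flat, as that of Pdgfra was.

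Genes that act on PDGF ligands or below their receptors showed no common direction. Of 7 processing and co-receptor genes 5 were higher and 2 lower on average (4 and 3 with arrays centred on their medians), with 0 at an unadjusted limma p under 0.05, against 2.84% of probe sets higher and 2.97% lower. Plat, the tissue plasminogen activator that cleaves the C chain, was 8.17 ± 0.19 in preirradiated and 7.96 ± 0.10 in nonirradiated tumors (SD, n = 4, limma adjusted p = 0.851), with preirradiated tumor 4, at 7.92, inside the nonirradiated range. Sparc, a matricellular protein that binds the B chain, differed by 0.051 and the proprotein convertase Furin by 0.047. Without preirradiated tumors 1 and 3 the difference of Plat was 0.11, that of Sparc 0.012 and that of Furin -0.029. Without preirradiated tumor 4 that of Plat was 0.3, that of Sparc 0.09 and that of Furin 0.1, where Plat and Sparc had an unadjusted limma p under 0.05. Without preirradiated tumor 1 the differences of Plat, Sparc and Furin were 0.14, 0.027 and -0.0034. Of 16 measured signalling genes 10 were higher and 6 lower, but 5 and 11 with arrays centred, and the median was 0.024. The adaptor Shc1 was the only 1 at an unadjusted p under 0.05, at 10.02 ± 0.07 against 10.15 ± 0.06 (difference -0.13, limma adjusted p = 0.812). Its unadjusted p was no longer under 0.05 without preirradiated tumors 1 and 3 (-0.15). The same held without any 1 of nonirradiated tumors 1, 3 and 4 and preirradiated tumors 1 and 4. The adaptor Nck1 differed by -0.16, by -0.26 without preirradiated tumor 2 and by -0.1 without preirradiated tumor 4, and the kinase Map2k1 by -0.08.

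Among 9 genes that dampen the receptor signal 6 were lower and 3 higher, with a median of -0.063. At an unadjusted limma p under 0.05 there were 0, against 5.8% of all probe sets. Ptprj, a phosphatase that acts on the beta receptor, was 10.32 ± 0.11 against 10.49 ± 0.12 (limma adjusted p = 0.853). The feedback inhibitor Spry4 differed by 0.13, by 0.074 without preirradiated tumor 1, and by 0.13 with an unadjusted limma p under 0.05 without preirradiated tumors 1 and 3. The ERK phosphatase Dusp6 differed by -0.08, and by -0.028 without preirradiated tumors 1 and 3. Of 12 immediate early genes of growth factor stimulation 8 were lower and 4 higher, with a median of -0.033. Myc, the transcription factor, was 10.82 ± 0.08 against 10.98 ± 0.09 (difference -0.16, limma adjusted p = 0.813) and was the 1 gene of this list under 0.05. Its unadjusted p was 0.05 or more without nonirradiated tumor 1, 2 or 3 or preirradiated tumor 2. Junb differed by 0.11, by 0.073 without preirradiated tumor 1 and by 0.07 without preirradiated tumors 1 and 3. The chemokine Ccl2 differed by -0.25 (SE 0.19), by -0.07 without nonirradiated tumor 3, and by -0.15 without preirradiated tumor 2.

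Around Notch3, the Notch pathway list had 9 of 13 members higher and 4 lower (7 and 6 with arrays centred). At an unadjusted limma p under 0.05 there was 1 in each direction, against 2.84% of probe sets higher and 2.97% lower. In 2 of 13 the groups did not overlap, against 3.36% of probe sets. Jag1, a Notch ligand, read 8.57, 8.56, 8.65 and 8.67 in nonirradiated and 8.89, 8.87, 8.75 and 8.79 in preirradiated tumors. The preirradiated tumors all exceeded the nonirradiated ones, by 0.21 on average (SE 0.048, limma adjusted p = 0.627). Nrarp, a target gene of Notch signalling that dampens it, read 8.89, 9.08, 8.96 and 8.79 against 8.68, 8.54, 8.74 and 8.71. Here every preirradiated tumor lay below every nonirradiated tumor, by -0.26 on average (SE 0.07, limma adjusted p = 0.679). Both kept their direction without preirradiated tumors 1 and 3, at 0.22 and -0.3. Notch1 differed by 0.085 and the mural effector Heyl did not pass either threshold.

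Other pericyte and mural cell genes did not move together. Of 23 measured genes 13 were higher and 10 lower, with a median of 0.038, and the 3 at an unadjusted limma p under 0.05 were all lower, where 2.97% of probe sets were. Without preirradiated tumors 1 and 3 the count under 0.05 was 1, and without preirradiated tumor 4 it was 6. The share of all probe sets under 0.05 in those fits is not given here, so these counts have no background. Of the 23 genes 2 had groups without overlap, against 3.36% of probe sets. Foxc1, a transcription factor of the developing mural lineage, read 9.27, 9.19, 9.28 and 9.17 in nonirradiated and 8.89, 9.06, 8.77 and 8.97 in preirradiated tumors. The groups did not overlap, and the difference was -0.3 (SE 0.065, limma adjusted p = 0.62). Without preirradiated tumors 1 and 3 it was -0.21. Cox4i2, a subunit of cytochrome c oxidase found in pericytes, was 6.74 ± 0.01 against 6.86 ± 0.06, also without overlap (limma adjusted p = 0.774), and its unadjusted p was no longer under 0.05 without preirradiated tumors 1 and 3.

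Angpt1, the angiopoietin that mural cells supply to the endothelial receptor Tek, read 8.79, 8.80, 8.85 and 8.93 in nonirradiated and 7.98, 8.39, 8.37 and 8.86 in preirradiated tumors. Preirradiated tumors 1 to 3 lay below all nonirradiated tumors and tumor 4 lay within their range. The difference of -0.44 (SE 0.16, 95% interval -0.81 to -0.08, limma adjusted p = 0.812) passed the study's filter, the 1 gene of this list to do so (0.153% of probe sets passed it as lower). It missed that filter without preirradiated tumor 1 (-0.3) or nonirradiated tumor 4 (-0.41, where the p no longer met the limit), and without both preirradiated tumors 1 and 3 it was -0.22.

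**Figure D4:**
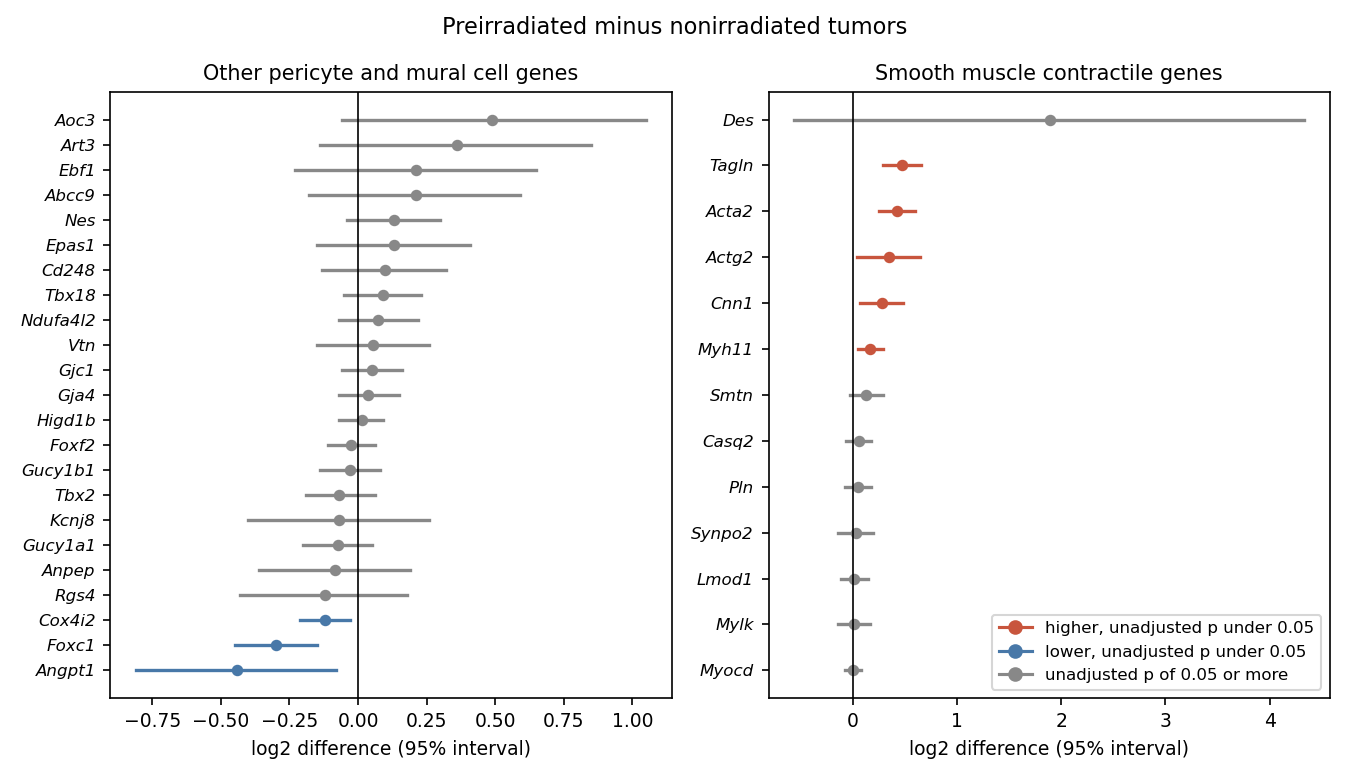
Each point is the log2 difference of a gene, preirradiated minus nonirradiated, with its 95% interval from limma, for 23 other pericyte and mural cell genes (left) and 13 smooth muscle contractile genes (right, with a wider axis for Des); red and blue mark genes higher or lower at an unadjusted p under 0.05. The pericyte genes lie on both sides of 0, and all 13 contractile genes lie above it, although 9 of 13 do with arrays centred.

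The contractile genes of smooth muscle, which mural cells of larger vessels and myofibroblasts share, differed from the pericyte genes in their counts. All 13 were higher on average (10 of 13 after quantile normalization, 9 of 13 with arrays centred and 12 of 13 with array weights), with a median of 0.131. Of these, 5 had an unadjusted limma p under 0.05, where 2.84% of probe sets were higher, and 2 passed the study's filter, which 0.489% of probe sets passed as higher. In 4 of 13 the groups did not overlap, against 3.36% of probe sets. This list, like the members and the other lists, was chosen with earlier results of these data known. Its counts beside these shares are therefore a description and not an independent result. The list means of preirradiated tumors 1 and 3, the tumors high in skeletal muscle markers, were 7.09 and 7.19. The other preirradiated tumors had list means of 6.79 and 6.77, and nonirradiated tumors had 6.62 to 6.7. These means include Des, which had the highest difference of the list, 1.89 (SE 1.1). Des ranged from 6.15 to 11.28 in preirradiated and from 6.20 to 6.49 in nonirradiated tumors. All 13 genes count equally in the list means, so this 1 gene weighs on them. Of the 13 genes 4 were under 0.05 without both preirradiated tumors 1 and 3, a fit whose share of all probe sets is not given here. Tagln differed by 0.47, Acta2 by 0.43 and Myh11 by 0.17, each with no overlap between groups and a limma adjusted p of at least 0.595. Acta2 missed the study's filter in 4 alternatives, at 0.38 without preirradiated tumor 1 or nonirradiated tumor 2, at 0.39 with arrays centred and at 0.36 without preirradiated tumors 1 and 3. A difference between the contractile list and the pericyte list was not tested, and both hold genes of low signal, such as Myocd (5.08 in nonirradiated tumors) among the contractile genes.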

How the data were processed

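The series' processed table holds 34760 probe sets of the Affymetrix Mouse Gene 1.0 ST array in 8 tumors, 1 array each. The authors deposited log2 expression values made by robust multi-array averaging (RMA) with the affy package of Bioconductor 2.4, per the series' design text, and the submitters' processing notes name R 2.15.3. RMA equalises the arrays, so changes in total RNA are not visible, and it gives no detection calls, so the presence of a low gene cannot be stated. The number of arrays limits the precision.

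Gene names came from the platform annotation (21640 probe sets with 1 symbol, 1321 with several, 11799 with none), checked by Entrez ID against RefSeq GRCm38.p6. Where several probe sets carried only a gene's symbol, that of highest mean stood for it. All 34738 probe sets with a mean of at least 4.0 were fitted with the moderated two-sided test of limma 3.58.1 (R 4.3.3, no covariate), which was tested on simulated data, and p-values were adjusted by Benjamini-Hochberg over all of them. Exact permutation tests used SciPy 1.17.1. The members and the 15 gene lists were chosen with earlier results of these data known. Named from each pathway and mural list were the 3 genes with the smallest p and any gene past the study's filter, and cell type marker lists are given as means. Alternatives covered the expression limit, variance model, normalization, array weights, replicate block, probe set choice, thresholds and leaving out tumors.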

Additional observations from a re-analysis of the deposited data

Results flagged for a closer look

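In nonirradiated tumors Furin, the proprotein convertase, stood apart in tumor 4, at 10.51 against 10.36 to 10.38 in the other 3. Its gap to the nearest tumor was 0.866 of the group's range, above Dixon's critical value for 4 samples. It was the 1 value found among 62 groups examined, where chance gives about 1 in 20.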

How the results depend on the processing

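No member passed the adjusted threshold or the study's filter in any of the alternative fits, and 0 was also the count at both thresholds without any single tumor (0 to 0). Pdgfd was not tested at a mean of at least 6.0. Counting Cspg4 at an unadjusted p under 0.05 with no limit on the change, or with a limit of 0.2, gave 1 member. The number of members with separated groups ran from 0 to 2 when single tumors were left out, with 2 without nonirradiated tumor 2 or preirradiated tumor 4, and the median over the members from 0.031 to 0.099. Groups of fewer tumors separate more readily, and the share of all probe sets separated in those fits is not given here. These counts are therefore not read as a result about the members. Pdgfrb, Cspg4, Pdgfb, Pdgfd, Pdgfra, Rgs5, Notch3 and Mcam kept their direction in every alternative run. Over all 10 members 8 of 179 fits changed sign, and all of these were fits of the ligands Pdgfa and Pdgfc. Each of these ligands kept its sign in 14 of 18 alternatives. Both changed sign with quantile normalization (0.007 and 0.0076). Pdgfa also did without nonirradiated tumor 3 (0.02), nonirradiated tumor 4 (0.03) or preirradiated tumor 4 (0.06). Pdgfc also did without preirradiated tumor 3 (0.038), preirradiated tumor 4 (0.032) or preirradiated tumors 1 and 3 (0.084). Leaving out single tumors moved Pdgfa from -0.074 to 0.06 and Pdgfc from -0.14 to 0.038. Furin, which ran from -0.0034 to 0.1 without single tumors, changed sign without preirradiated tumor 1 and without preirradiated tumors 1 and 3 (-0.029). The cause of these reversals was not tested. Pdgfrb had an unadjusted limma p under 0.05 in 4 of 18 alternatives and Cspg4 in 11 of 18. These alternatives are not separate checks. Each member has 1 probe set, so those on probe set choice and on the expression limit refit the same values of a member. Counts of list genes at an unadjusted p under 0.05 ran, without single tumors, from 0 to 2 for the processing, signalling, attenuation and immediate early lists, from 2 to 2 for Notch genes, from 2 to 6 for other mural genes (6 without preirradiated tumor 4) and from 4 to 6 for contractile genes. With each array centred on its median, 2 signalling and 2 attenuation genes were counted. Without preirradiated tumors 1 and 3 the counts were 0 signalling, 1 attenuation, 2 immediate early and 1 other mural gene. The shares of all probe sets under 0.05 in these alternative fits are not given here, so the list counts have no background. The difference of Pdgfrb minus Pdgfra ran from 0.28 to 0.49 and that of Cspg4 minus Rgs5 from 0.33 to 0.63 without single tumors. Deviations of tumors with the same replicate number correlated from -0.289 to -0.075, and 0 of 8 tumors correlated best with their own number. These deviations were taken from the mean of each group of 4, so the correlations cannot exclude a pairing of the tumors. With the replicate number as a block, 0 members were called, 0 passed the study's filter, Cspg4 no longer had and Pdgfrb gained an unadjusted limma p under 0.05, and the study's filter was passed by 193 probe sets in place of 223.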
